A study of Mus musculus with 2 samples.

Results

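The Indian hedgehog relay was described through 9 genes, Ihh, Ptch1, Smo, Gli1, Gli2, Gli3, Hhip, Nr2f2 and Hand2, out of 32285 genes listed in each library. They were taken by symbol, and all 9 were found in both libraries. The tissue was the whole uterus of female mice aged 6 months, dissociated by digestion for 5 hours and profiled by droplet-based sequencing of transcript 3′ ends. Mice of the first group carried Prickle1 f/f alleles (the control library), and mice of the second carried the same alleles with a Cre driven by Ltf, a lactoferrin gene transcribed in uterine epithelium (the cKO library). Each library was 1 pool of 3 mice, so differences have no replicate check, and an effect of genotype cannot be told apart from one of the animals, the digestion or the library. The genotype field of the labels reads wild-type for both, so control and cKO stand here for the libraries titled so. The labels give no stage of the oestrous cycle.

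In the mouse uterus, epithelial cells release Indian hedgehog under the control of the progesterone receptor, and the signal is received by the stroma beneath. The ligand binds the receptor Ptch1, which frees Smo to signal through the Gli transcription factors. Transcription of Gli1, Ptch1 and the decoy receptor Hhip rises as a readout of the pathway, and the stromal factors Nr2f2 (COUP-TFII) and Hand2 act further along, Hand2 restraining epithelial growth.

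A barcode was kept as a cell if it had 500 or more genes and no more than 20% of its unique molecular identifiers (UMIs, counted transcript molecules) from mt- genes, which left 3653 cells in control and 4950 in cKO, with medians of 4650 and 5944 UMIs. The libraries shared 5 cell barcodes. Cells were classed by 1 UMI of Epcam (epithelium, 961 and 103 cells), Pdgfra (stroma, 636 and 1487) or Ptprc (immune, 688 and 1588), and cells that met 2 gates were left out. A muscle gate of 0.5% Actg2 UMIs took only 42 and 8 cells, so muscle is described by 1 Actg2 UMI with no UMI of the other 3 markers (291 and 505 cells), a gate chosen after those numbers were seen. Apart from Pdgfra itself, all 6 stromal markers were found in at least 10% of Pdgfra-positive cells of each library, and their summed level was 12212 in control and 13494 in cKO in CPM (UMIs per 1000000 UMIs of the class). Apart from Actg2 itself, all 6 smooth muscle markers reached that share of Actg2-positive cells in each library. The Epcam-positive cells of the 2 libraries were not alike. A UMI of the mesothelial genes Msln or Upk3b was carried by 34 of 961 control cells (3.54%) and 42 of 103 cKO cells (40.8%), and the summed stromal markers stood at 298 CPM and 4615 CPM. Epithelial values are therefore also given for cells with at least 0.1% of UMIs from the keratins Krt8, Krt18 and Krt19 and no mesothelial UMI, 885 in control and 44 in cKO, called keratin cells here.

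Prickle1, the targeted gene, had 12 UMIs in control keratin cells (0.758 CPM, 0.392 to 1.32) and 2 in cKO keratin cells (1.07 CPM, 0.130 to 3.87), too few to show a loss. Over all Epcam-positive cells it was higher in cKO, at 0.752 CPM in control and 4.72 CPM in cKO. Whether the counted 3′ ends lie in the deleted part is not given in the sources used here, so these counts do not check the labels. Ranges in parentheses are exact 95% intervals that cover counting error only, not differences between mice.

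Ihh, the ligand (chromosome 1, 74945315 to 74951672, minus strand, GRCm38), was nearly absent from control epithelium and present in a few deep cKO cells. Control Epcam-positive cells held 2 Ihh UMIs in 2 of 961 cells (0.116 CPM, 0.0140 to 0.418), and cKO cells held 81 UMIs in 7 of 103 cells (22.5 CPM, 17.9 to 28.0). The ratio was 194 (52.1 to 1632) over the class, and 335 (89.7 to 2812) in keratin cells. The mean of the cells' own CPM, which gives each cell the same weight, put it at 14.8, below that interval. In control that mean rests largely on 1 UMI in a cell of 2886 UMIs (346.5 CPM), beside 13.0 CPM in the other cell with Ihh. A trimmed-mean scaling between the libraries lowered every log2 ratio of this class by 0.56, and that of Ihh from 7.60 to 7.04. Of all Ihh UMIs in cells, Epcam-positive cells held 2 of 4 in control and 81 of 90 in cKO. Pdgfra-positive cells held 0 in control, which allows up to 0.357 CPM, and 4 in cKO. Cell-free RNA, from barcodes with at most 100 UMIs, held Ihh at 0.776 CPM in control and 2.19 CPM in cKO, from 2 and 5 UMIs.

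The 7 Ihh-bearing cKO cells held 47, 17, 10, 3, 2, 1 and 1 Ihh UMIs, so 58.0% of the class's Ihh UMIs came from 1 cell. Without the cell that held most Ihh UMIs in each library, the log2 ratio was 7.41 against 7.60. That step also removed 1 of the 2 control UMIs, so it does not show the weight of the cKO cell alone. All 7 carried UMIs of Krt8 and Krt18, keratins of simple epithelia, none carried a Gli1, Hhip or Hand2 UMI, and their doublet scores were at most 0.112. These cells were among the deepest, with 39483 to 203575 UMIs. Among Epcam-positive cells with at least 30000 UMIs, 1 of 192 control cells (0.521%, 0.0132 to 2.87) and 7 of 36 cKO cells (19.4%, 8.19 to 36) held Ihh, a threshold chosen after the depths were seen. Within deep keratin cells the numbers were 1 of 177 and 6 of 18. After thinning each cell to 5000 UMIs, Ihh was left in 0 of 553 control cells, which allows up to 0.542%, and in 1 of 83 cKO cells (0.0305% to 6.53%), which held 4 UMIs. The shares' intervals overlap at that depth. The cKO Epcam-positive class also had the higher median depth, 17961 UMIs against 6294.

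**Figure D1:**
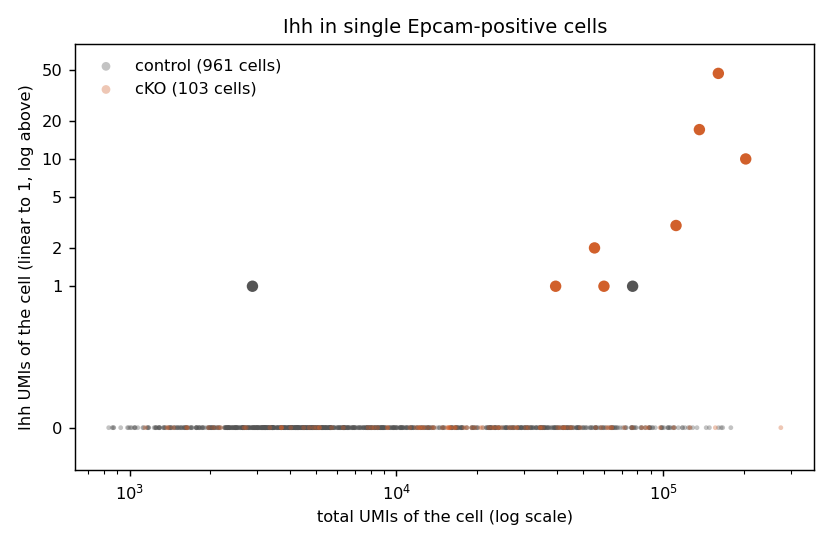
Ihh UMIs of each Epcam-positive cell (axis linear to 1 and log above) against its total UMIs (log axis), 1 point per cell, with large points for cells that hold Ihh. The 7 cKO cells with Ihh hold 1 to 47 UMIs and lie above 30000 total UMIs, and 1 of the 2 control cells with Ihh lies there too.

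Other genes were high in the Ihh-bearing cKO cells compared with the other 96 Epcam-positive cells of that library. The small proline-rich protein genes Sprr2d and Sprr2b, which are oestrogen-responsive in uterine epithelium, stood at 403 CPM against 2.47 CPM and 189 CPM against 2.47 CPM. Sprr2d was found in only 4 of the 7 cells and Sprr2b in 2, where 60.7% of its UMIs came from 1 cell. Pdzk1ip1, an epithelial membrane protein gene, was found in 7 of 7 cells at 729 CPM against 38.1 CPM. The lipoxygenase Alox15 was found in 6 of 7 cells at 396 CPM against 15.5 CPM. Chil5, Cd14 and Psca were found in 5, 6 and 5 of the 7 cells, whereas 97.6% of the Cxcl5 UMIs came from 1 cell. Of the Ihh-bearing cells 6 were keratin cells, but only 38 of the other 96 were, so this comparison also sets epithelium beside cells with mesothelial and stromal markers. Among keratin cells alone the order held for all 8 genes. Sprr2d stood at 434 against 6.05 CPM, Pdzk1ip1 at 759 against 75.2, Alox15 at 424 against 34.6 and Psca at 465 against 97.7. The 8 genes were picked as the highest in these same cells, and 6 of the 7 Ihh-bearing cells recur here. The order among keratin cells is therefore not a separate check. The 8 genes of the rule in control were Ifit3, Isg15, Ccl5, Ifi207, Tspan33, Rsad2, Gbp2 and Pou3f1, several of them interferon-induced, and they rest on 1 of the 2 cells.

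Ptch1, the receptor and a target (chromosome 13, 63508328 to 63573598, minus strand), was higher in cKO stroma. Pdgfra-positive cells held 87 Ptch1 UMIs in 56 of 636 control cells (10.3 CPM, 8.28 to 12.8) and 654 UMIs in 278 of 1487 cKO cells (25.1 CPM, 23.2 to 27.1). The ratio was 2.42 (1.94 to 3.07). Averaging the cells' own CPM gave a ratio of 1.91, under the 2-fold mark. Smo, which relays the signal (chromosome 6, 29735503 to 29761365, plus strand), stood at 26.3 CPM from 221 control UMIs and 24.8 CPM from 647 cKO UMIs, and the ratio was 0.944 (0.809 to 1.10). The Smo interval spans 1 and lies within 2-fold on both sides.

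Gli1, the activator that serves as the pathway's readout (chromosome 10, 127329882 to 127341974, minus strand), held 9 UMIs in 8 control stromal cells (1.07 CPM, 0.489 to 2.03) and 139 UMIs in 105 cKO cells (5.33 CPM, 4.48 to 6.29). The ratio was 4.98 (2.55 to 11.1). Gli2, the main activator of the first response (chromosome 1, 118834132 to 119053619, minus strand), had 30 UMIs (3.57 CPM, 2.41 to 5.09) and 179 UMIs (6.86 CPM, 5.89 to 7.94), a ratio of 1.92 (1.3 to 2.93) just under the 2-fold mark. Gli3, the main repressor in the absence of ligand (chromosome 13, 15463235 to 15730026, plus strand), stood at 95.1 CPM (88.6 to 101.9) and 87.7 CPM (84.1 to 91.4), a ratio of 0.922 (0.850 to 1.00). Of the 3 Gli genes, Gli1 alone was past the 2-fold mark, and differences between their ratios were not tested. The Gli2 ratio was 1.26 when pooled within the stromal clusters described further on. The direction of Gli3 is not firm, since its ratio was above 1 in several alternative calculations, up to 1.07 with cells thinned to 5000 UMIs.

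Hhip, a membrane protein that binds and sequesters the ligand (chromosome 8, 79965851 to 80058006, minus strand), was not seen in control stroma. It had 0 UMIs in 636 control cells, which allows up to 0.357 CPM, and 138 UMIs in 64 of 1487 cKO cells (5.29 CPM, 4.44 to 6.25), at least 14.8-fold higher. The cell with the most held 10 of those UMIs. Nr2f2, a nuclear receptor of uterine stroma (chromosome 7, 70351944 to 70366735, minus strand), stood at 134 CPM and 159 CPM, a ratio of 1.19 (1.11 to 1.27). Hand2, a basic helix-loop-helix factor (chromosome 8, 57320983 to 57324633, plus strand), had 25 UMIs in 18 control cells (2.97 CPM, 1.92 to 4.39) and 676 UMIs in 260 cKO cells (25.9 CPM, 24.0 to 27.9). The Hand2 ratio was 8.72 (5.85 to 13.6). Hand2os1, transcribed from the opposite strand over Hand2 (57281117 to 57324233), had 21 and 464 UMIs with a ratio of 7.12 (4.60 to 11.6). The 3′ ends of the pair, at 57324633 for Hand2 and 57281117 for Hand2os1, lie outside the stretch where they overlap. Whether counting used strand is not stated, and mixing of reads within the overlap was not tested.

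In stroma, 8 of the 9 genes reached the minimum of 20 UMIs over both libraries, and 4 of them, Ptch1, Gli1, Hhip and Hand2, were at least 2-fold higher in cKO. Of 13460 genes with that many UMIs, 5.98% were at least 2-fold higher and 6.98% at least 2-fold lower, and 0 of the 8 were lower. Their median log2 ratio was 1.11, beside -0.03 over all those genes. The cell-free profile moved the same way for several of them, from 0.776 to 5.69 CPM for Gli1, from 5.43 to 25.8 CPM for Hand2 and from 6.98 to 15.3 CPM for Ptch1. The estimated cell-free share of stromal UMIs was 0.822% in control and 2.10% in cKO, and with it subtracted the log2 ratios were 2.31 for Gli1, 3.13 for Hand2 and 1.28 for Ptch1, against 2.32, 3.12 and 1.28 before.

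**Figure D2:**
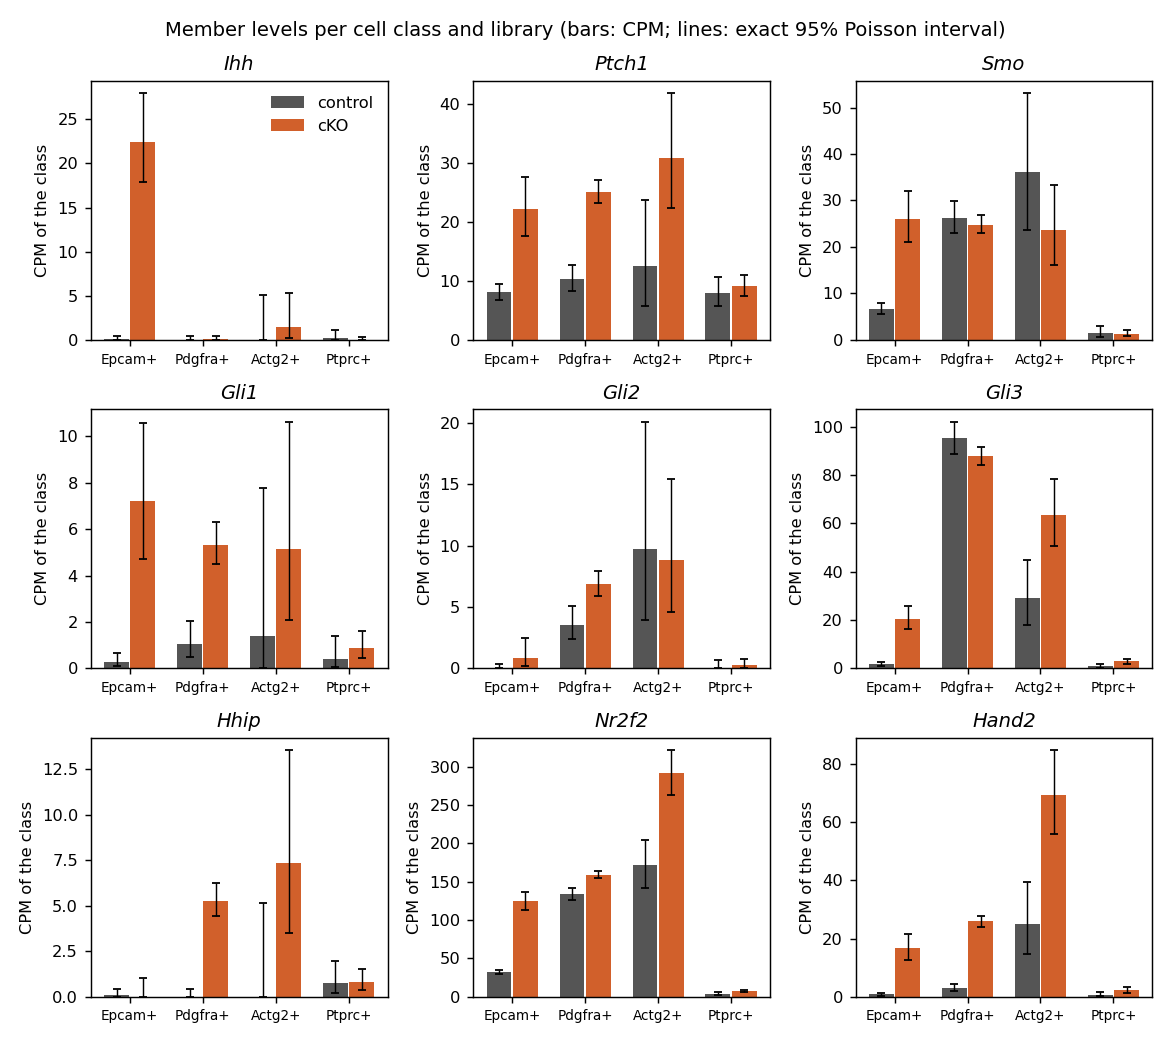
Level of each gene in CPM of the class, by cell class and library, with bars from 0 and lines for the exact 95% Poisson interval. In Pdgfra-positive cells the cKO bar exceeds the control bar for Ptch1 (25.1 against 10.3), Gli1 (5.33 against 1.07) and Hand2 (25.9 against 2.97), and Hhip appears from 0, whereas Smo and Gli3 lie close together.

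Stromal cells were deeper in cKO, with a median of 15614 UMIs against 11859, so shares of cells were compared at a fixed depth. Thinned to 5000 UMIs, with 157 shallower control and 189 shallower cKO cells left out, Ptch1 was seen in 3.34% (1.92 to 5.37) of control and 9.01% (7.51 to 10.7) of cKO stromal cells. Without thinning these shares were 8.81% and 18.7%. Gli1 was seen in 0.835% (0.228 to 2.12) and 2.62% (1.82 to 3.64), with the intervals overlapping. Immune cells, which served as background with medians of 6147 and 5370 UMIs, gave 2.64% and 3.98% for Ptch1 and 0.240% and 0.455% for Gli1 after the same thinning. The control share of Ptch1 in stroma thus lay within the interval of its immune share (1.33 to 4.68), and the cKO share above that of its own immune cells (2.79 to 5.49). Hand2 was seen in 0.835% (0.228 to 2.12) and 8.17% (6.73 to 9.79), and Hhip in 0 of 479 cells, which allows up to 0.626%, and 2.00% (1.31 to 2.92).

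**Figure D3:**
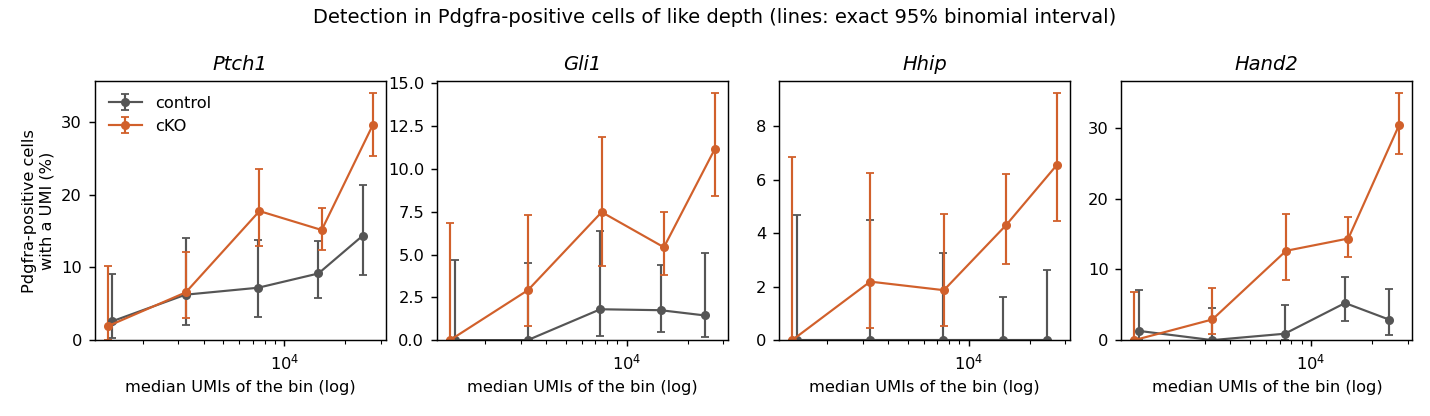
Share of Pdgfra-positive cells with a UMI of Ptch1, Gli1, Hhip or Hand2, in 5 bins of cell depth, against the bin's median UMIs on a log axis, with exact 95% binomial intervals. In cells of at least 20000 UMIs the cKO shares were 29.5% for Ptch1 and 30.4% for Hand2, above the control shares of 14.4% and 2.88%, while below 5000 UMIs the intervals overlap.

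Within cKO stroma, cells with a UMI of Gli1 more often held Ptch1 and Hand2 than cells without. Of the 105 Gli1-bearing cells, 45 (42.9%, 33.2 to 52.9) held a Ptch1 UMI, against 16.9% (14.9 to 18.9) of cells without Gli1. Hand2 was seen in 48.6% (38.7 to 58.5) of the Gli1-bearing cells and in 15.1% (13.3 to 17.1) of the others. Of the 64 Hhip-bearing cells, 34.4% (22.9 to 47.3) held Ptch1, against 18% (16.0 to 20.1). Gli1 was seen in only 12 of the 64 (18.8%, 10.1 to 30.5), against 6.54% of cells without Hhip. Cells with Gli1 were deeper, at a median of 19501 UMIs against 15446, and the part of depth in these shares was not tested.

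Pdgfra-positive cells were split into 9 clusters without the 9 genes and without 42 other hedgehog genes, and most clusters came mainly from 1 library. Cluster 1, led by Myoc, Gpnmb and C1qtnf3, held 331 control and 44 cKO cells. Cluster 2, led by Cyp7b1 and Cacnb2, held 34 and 412, and cluster 3, led by Pcolce2 and Tnfrsf11b, held 47 and 380. Cluster 5, led by the heat shock genes Hspa1a and Hspa1b, held 22 and 292, and cluster 8, led by the retinoic acid hydroxylase Cyp26b1, held 6 and 243. Cluster 7, led by interferon-induced genes such as Ifit3b, held 29 control cells and 0 cKO cells. Clusters 4, 6 and 9 held 99, 62 and 6 control cells and 60, 27 and 29 cKO cells, and cluster 9 was led by immune genes such as Cd3g. With 1 library per group, a cluster mostly of 1 library may be that library, not a type.

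In cKO, clusters 5 and 8 held 17.3% and 24.5% of the stromal UMIs, but 41.0% and 40.3% of the Gli1 UMIs and 32.3% and 33.6% of the Ptch1 UMIs. Hhip was spread more evenly, with 23.2% and 33.3% of its UMIs there, and its level in clusters 5 and 8 (7.10 CPM, 4.86 to 10.0, and 7.18 CPM, 5.26 to 9.58) overlapped that of cluster 3 (4.52 CPM, 3.07 to 6.42). Cluster 8 also held 70.3% of the Hand2 UMIs, 77.8% of the Hand2os1 UMIs and 51.4% of the Gli2 UMIs. Hand2 and Hand2os1 were among its 10 leading genes. Hand2os1 was not among the genes left out of the clustering, so the Hand2 share there may be partly built in, which was not tested. In control, 5 of the 9 Gli1 UMIs lay in cluster 6, led by Fndc5, which held 7.19% of the stromal UMIs. Control Hhip was at 0 in every cluster. Gli1 had a cKO to control ratio only in cluster 3 (2.06, 0.313 to 87.0) and cluster 6 (0.507, 0.0107 to 4.53). Both intervals span 1.

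Ptch1 could be set side by side in the clusters with at least 20 cells of each library. In cluster 1 it stood at 7.61 CPM (control) and 27.2 CPM (cKO), and the ratio was 3.58 (1.80 to 6.72). Smooth muscle markers in that cluster also differed, at 729.8 and 2463 CPM, as did mesothelial markers, at 87.9 and 264.6 CPM, and the median depth, at 14651 and 8509 UMIs, and their part in the ratio was not tested. In cluster 3 it stood at 6.95 CPM and 15.2 CPM, a ratio of 2.18 (1.02 to 5.57). The interval spans 1 in cluster 2, with 2 and 95 UMIs and a ratio of 3.13 (0.844 to 26.3), and in cluster 6, at 1.90 (0.544 to 6.25). In cluster 5 the order was the opposite, at 64.8 CPM from 9 control UMIs and 46.8 CPM (cKO), and the ratio was 0.722 (0.373 to 1.60). The cells of cluster 5 were unlike between libraries, since lymphatic endothelial markers summed to 3320 CPM in the 22 control cells and 67.7 CPM in cKO, and the median depths were 2492.5 and 11822.5 UMIs. Cluster 4 had 4 control UMIs (13.3 CPM) and 0 in cKO, which allows up to 25.6 CPM, so either direction is possible there. Pooled within the clusters that both libraries filled, the log2 ratios were 0.85 for Ptch1, 1.36 for Gli1, 0.34 for Gli2 and 2.48 for Hand2, lower than the 1.28, 2.32, 0.94 and 3.12 over the whole class, so Ptch1 was below 2-fold. With cluster 5 also left out, an alternative chosen after seeing the data, they were 1.28 for Ptch1, 0.92 for Gli1, 0.12 for Gli2 and 2.66 for Hand2, so Gli1 was below 2-fold instead. Nr2f2 went the other way, at 0.47 within clusters and 0.25 over the class.

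**Figure D4:**
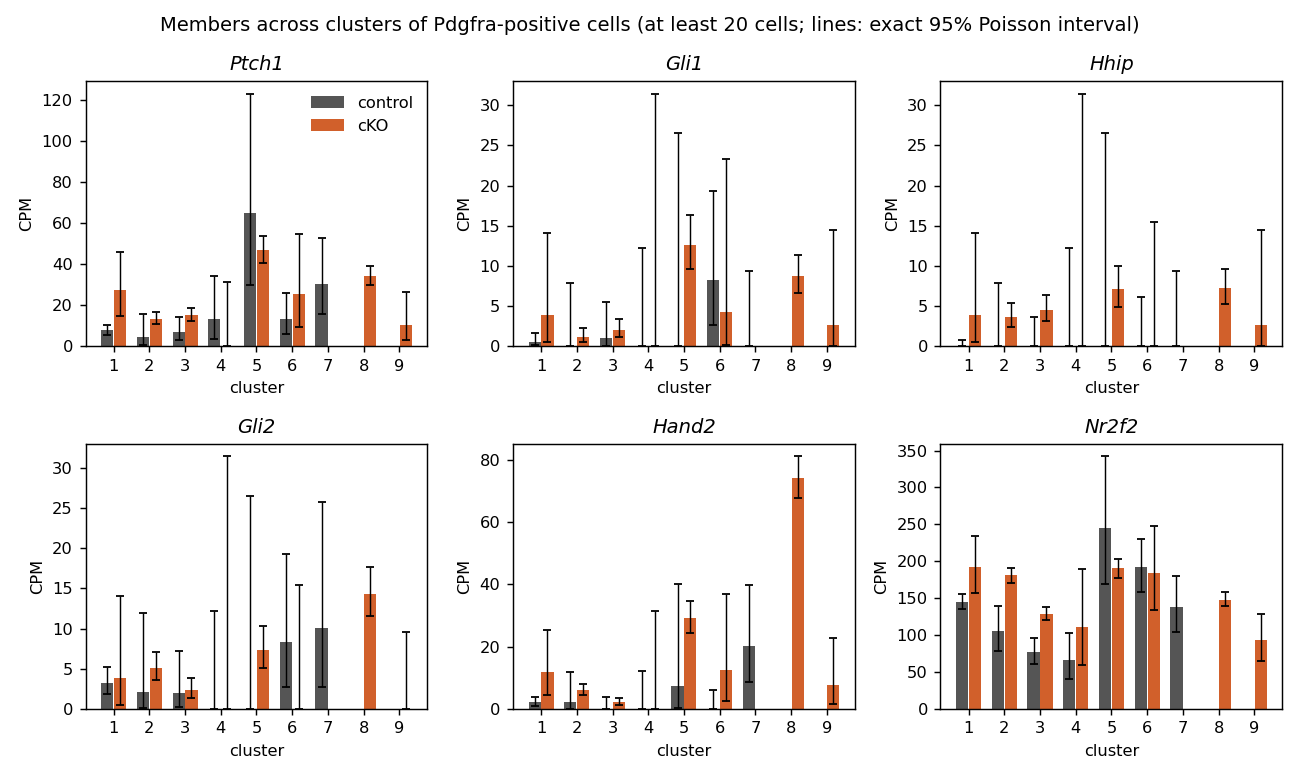
Level in CPM of 6 genes across the 9 clusters of Pdgfra-positive cells, for each library with at least 20 cells in the cluster, with bars from 0 and lines for the exact 95% Poisson interval. Hand2 peaks in cluster 8 of cKO (74.2 CPM), which lacks a control bar because only 6 control cells fell there, and Ptch1 in cluster 5 overlaps between libraries.

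The upstream sequence of the ligand and of 3 genes that were higher together in stroma is shown so that their GLI motif content can be read. RefSeq promoter windows on GRCm38.p6 were found for 8 of the 9 genes (Gli1 had none in the table), and the 250 bases before each start were searched on both strands for the full GLI site GACCACCCA and for its core CCACCC, which lies inside it. Capitals mark the core or its reverse complement, and each sequence reads 5′ to 3′ on the gene's strand. The windows are chr1:74951673-74951922 (minus strand), chr8:80058009-80058258 (minus), chr13:63565736-63565985 (minus, inside an intron of longer Ptch1 transcripts) and chr8:57320733-57320982 (plus, overlapping exons of Hand2os1).
Ihh: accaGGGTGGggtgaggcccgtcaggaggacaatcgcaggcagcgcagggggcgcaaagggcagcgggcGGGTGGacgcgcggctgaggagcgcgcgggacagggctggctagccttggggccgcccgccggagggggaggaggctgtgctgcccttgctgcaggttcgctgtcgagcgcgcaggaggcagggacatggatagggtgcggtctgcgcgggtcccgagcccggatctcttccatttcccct
Hhip: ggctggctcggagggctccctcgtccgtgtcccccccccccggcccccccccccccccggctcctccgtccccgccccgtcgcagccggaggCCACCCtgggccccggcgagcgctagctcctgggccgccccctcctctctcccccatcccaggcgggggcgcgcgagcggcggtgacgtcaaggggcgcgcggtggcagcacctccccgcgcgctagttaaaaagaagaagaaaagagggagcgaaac
Ptch1: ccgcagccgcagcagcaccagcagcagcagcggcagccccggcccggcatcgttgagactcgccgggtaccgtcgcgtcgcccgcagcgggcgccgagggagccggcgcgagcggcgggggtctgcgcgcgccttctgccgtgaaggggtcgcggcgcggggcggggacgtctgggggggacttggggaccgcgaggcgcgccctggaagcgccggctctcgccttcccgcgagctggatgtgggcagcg
Hand2: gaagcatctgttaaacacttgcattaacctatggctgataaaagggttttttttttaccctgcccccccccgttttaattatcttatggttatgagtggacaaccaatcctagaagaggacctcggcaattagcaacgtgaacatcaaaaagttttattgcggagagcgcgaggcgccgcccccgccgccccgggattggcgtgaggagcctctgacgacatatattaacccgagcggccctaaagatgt
The full site was in 0 of the 8 windows, and 74 of 32851 windows of all genes (0.225%) held it. The core was in 5 of the 8, those of Ihh, Smo, Gli2, Gli3 and Hhip, and in 28.1% of all windows. Ptch1, Hand2 and Nr2f2 had neither in these 250 bases, which says nothing of sites elsewhere. A match here is a description of letters, not a binding site.

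In muscle by the gate of 1 Actg2 UMI, the summed levels of the receptor and of Hand2 were also higher in cKO, at lower counts. The stricter gate was planned because Actg2 is abundant in cell-free RNA. Its 42 and 8 cells held 0 and 0 UMIs of Ptch1, 2 and 0 of Hand2 and 16 and 1 of Nr2f2, too few to show a rise. The part of cell-free Actg2 in the looser gate was not tested. In Actg2-positive cells Ptch1 had 9 control UMIs (12.5 CPM) and 42 cKO UMIs (30.9 CPM), and the ratio was 2.47 (1.18 to 5.77). At fixed depth the shares of muscle cells with Ptch1 differed in order between depths, at 1 of 241 control and 13 of 411 cKO cells (0.415% and 3.16%) thinned to 1000 UMIs, but 4 of 27 and 4 of 56 (14.8%, 4.19 to 33.7, and 7.14%, 1.98 to 17.3) thinned to 5000. Hand2 stood at 25.1 CPM and 69.3 CPM, a ratio of 2.76 (1.66 to 4.86), Gli3 at 29.2 CPM and 63.4 CPM, a ratio of 2.17 (1.33 to 3.68), and Nr2f2 at 171 CPM and 291 CPM, a ratio of 1.70 (1.38 to 2.10). Gli1 had 1 and 7 UMIs with a ratio of 3.70 (0.476 to 167), and Hhip had 0 and 10, at least 1.76-fold higher. Of 5 genes with enough UMIs, 3 were at least 2-fold higher in cKO, beside 6.22% of 8233 genes tested in muscle, and 0 were lower, beside 4.41%. Stromal markers were also present in these cells, at 2037 CPM and 2197 CPM, and the difference between Gli3 here and in stroma was not tested.

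In Epcam-positive cells all 7 genes with enough UMIs were at least 2-fold higher in cKO, beside 28.4% of 12957 genes, while 0 were lower, beside 10.7%. Over the whole class Gli1 had 5 and 26 UMIs, Hand2 14 and 60, and Gli3 30 and 74. Those of Gli1 and Hand2 in cKO lay outside the keratin cells. In the other Epcam-positive cells, 76 in control and 59 in cKO, Gli1 stood at 2.07 CPM and 15.0 CPM, Gli3 at 16.6 CPM and 42.1 CPM, and Hand2 at 7.59 CPM and 34.6 CPM. In keratin cells Gli1 had 2 and 0 UMIs, Gli2 had 0 and 0, Hhip had 2 and 0 and Hand2 had 3 and 0. In keratin cells Ptch1 stood at 7.26 CPM and 12.3 CPM, a ratio of 1.69 (1.03 to 2.67), and Nr2f2 at 27.9 CPM and 48.7 CPM, a ratio of 1.75 (1.38 to 2.20). Smo stood at 5.94 CPM and 5.89 CPM, a ratio of 0.992 (0.479 to 1.86). Cell-free RNA held Ptch1 at 6.98 and 15.3 CPM, Nr2f2 at 43.4 and 120.3 CPM and Smo at 7.76 and 9.19 CPM. A cell-free share was estimated for the whole Epcam-positive class from 5 stromal genes, as if its cells made none of them. It came to 10.2% in control and 21.7% in cKO. Stromal transcripts made in cells of the class would raise it, and the part of cell-free RNA in these levels was not tested.

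Immune cells held Ptch1 at 7.90 CPM and 9.14 CPM, a ratio of 1.16 (0.798 to 1.70). Gli3, Nr2f2 and Hand2 were low there and higher in cKO, at 0.771 and 2.84 CPM, 3.85 and 7.63 CPM, and 0.578 and 2.22 CPM. Stromal markers in immune cells moved with them, from 104 CPM to 168 CPM, and their part in these differences was not tested. Of 5 genes with enough UMIs there, 2, Gli3 and Hand2, were at least 2-fold higher in cKO, beside 12.7% of 12386 genes, and 0 were lower, beside 6.85%. Gli1 had 2 and 10 UMIs and Gli2 had 0 and 3.

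**Figure D5:**
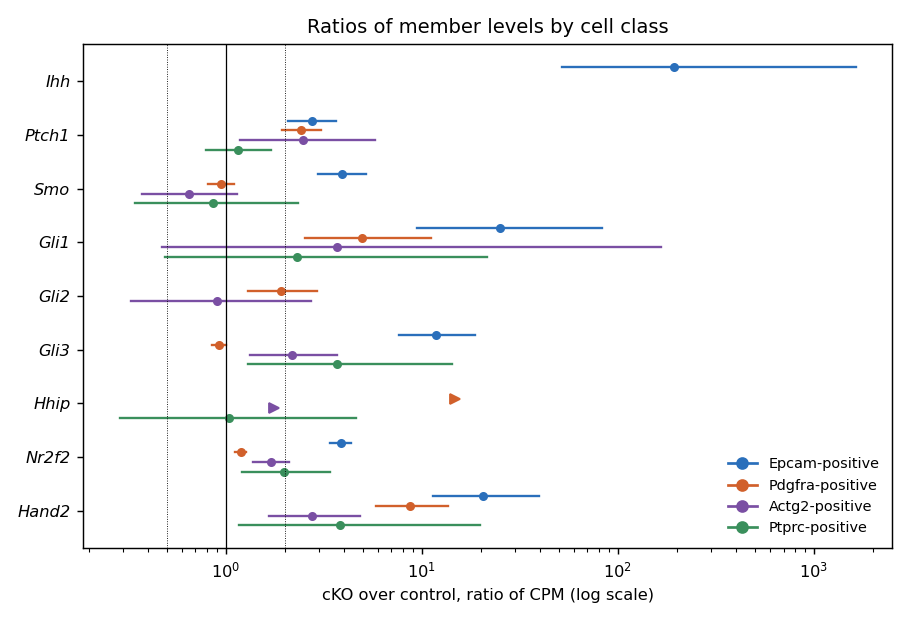
Ratio of cKO to control CPM for each gene and cell class on a log axis, with exact 95% intervals, arrowheads for lower bounds against 0 UMIs and dotted lines at 2-fold. Ihh in Epcam-positive cells lies farthest right (194), Gli1, Hhip and Hand2 in Pdgfra-positive cells lie right of the dotted line, and Smo and Gli3 there lie near 1 (0.944 and 0.922).

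The 42 other hedgehog genes held members past 2-fold in both directions in stroma. Of 36 with enough UMIs, 4 were at least 2-fold higher in cKO and 5 at least 2-fold lower, beside 5.98% and 6.98% of all genes tested there, with a median log2 ratio of -0.06. Scube1, of a family of secreted proteins that help release the ligand, stood at 4.76 CPM and 73.7 CPM, a ratio of 15.5 (11.3 to 21.8). Scube2, of the same family, went the other way, 2.93-fold lower (1.42 to 6.02) from 17 and 18 UMIs. Osr1, a zinc finger gene, was higher by a ratio of 2.82 (2.04 to 4.0) and the forkhead gene Foxc2 by 4.13 (1.68 to 13.1). Foxf2, another forkhead gene, rested on 3 and 19 UMIs, and its interval (0.601 to 10.8) spans 1. The co-receptor Gas1 stood at 114.7 CPM and 45.0 CPM, 2.55-fold lower (2.34 to 2.78), and the co-receptor Cdon was 2.29-fold lower (1.77 to 2.96). The co-receptor Boc had a ratio of 1.23 (0.920 to 1.68), which spans 1. The cell cycle gene Ccnd1 was 3.38-fold lower (2.05 to 5.60), and Evc, of a complex at the cilium base, was 2.19-fold lower (1.43 to 3.33). Of the other ligands, Shh had 1 and 0 UMIs over all cells and Dhh 15 and 18, where Ihh had 4 and 90. The inhibitor Sufu had 109 and 368 stromal UMIs with a ratio of 1.09 (0.877 to 1.36).

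Counts of the same list in the other classes follow. In Actg2-positive cells 6 of 18 were at least 2-fold higher and 1 lower, beside 6.22% and 4.41% of all genes tested, led by the cyclin Ccnd2, at 16.7 and 59.0 CPM with a ratio of 3.53 (1.91 to 7.11). In Ptprc-positive cells 6 of 23 were higher and 1 lower, beside 12.7% and 6.85%, and Disp1, which releases the ligand from cells, had 5 and 67 UMIs with a ratio of 6.17 (2.52 to 19.6). In Epcam-positive cells 15 of 27 were higher and 0 lower, beside 28.4% and 10.7%, where the summed stromal markers also differed, as given above. Whether the classes differ in these counts was not tested.

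Of 24 stromal genes listed as downstream of the relay, 23 had enough UMIs, and 4 were at least 2-fold higher and 2 lower in cKO stroma, beside 5.98% and 6.98% of all genes, with a median log2 ratio of 0.17. The Wnt ligand Wnt5a stood at 28.9 CPM and 73.2 CPM, a ratio of 2.53 (2.22 to 2.91). The homeobox genes Hoxa11 and Hoxa10 had ratios of 2.52 (2.08 to 3.06) and 2.05 (1.84 to 2.29), and Fgf9 had 8 and 53 UMIs with a ratio of 2.14 (1.01 to 5.20). Fgf10 and Fgf18, growth factors, were 2.50-fold lower (1.66 to 3.76) and 2.23-fold lower (1.61 to 3.07). A further list of 14 epithelial genes was set on the upstream side of the relay, and whether each acts on Ihh was not tested. Of these, 12 had enough UMIs in Epcam-positive cells. At least 2-fold higher in cKO were 2, Fst (2.67, 2.41 to 2.94) and Lrp2 (24.2, 14.9 to 41.3), beside 28.4% of all genes. Muc1, an apical mucin, was 3.48-fold lower in cKO, beside 10.7% of all genes lower. The median log2 ratio of the 12 genes was 0.47, beside 0.41 over all genes of that class. The share of cells with a mesothelial UMI and the stromal marker level of the class moved with these values, as given above. In keratin cells the ratios were 4.33 (3.88 to 4.82) for Fst, 37.5 (16.2 to 101.0) for Lrp2 from 7 and 31 UMIs, and 0.505 (0.434 to 0.584) for Muc1, just short of 2-fold lower.

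Over the 8 values given by 4 classes in 2 libraries, the genes most like Gli1 in log2(CPM + 1) were Ptch1 (Pearson r = 0.96), B230369F24Rik, Klhdc10, Zc2hc1c and Atcayos (0.93 to 0.94). Those most like Ptch1 were Mmachc (0.96), Gli1, Arf1, Wfikkn2 and Smpd1. Those most like Ihh were Crb2 (0.98), Sugct, Ccdc85a, Slc6a4 and Ankrd1. Ihh stood at 22.5 CPM in cKO Epcam-positive cells and at most 1.47 CPM elsewhere, so likeness to Ihh rests mainly on that mixed class. These correlations are descriptions over 14564 genes, since the 4 values of a library share its depth and cell-free RNA.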

How the data were processed

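The deposited values were raw counts of UMIs per gene and barcode, in unfiltered matrices; the file headers name Cell Ranger 4, whereas the submitters' processing notes name Cell Ranger 6.1.1 and build mm10. Aligner settings are not given in the sources used here. The 2 libraries held 45035801 and 57145553 UMIs. UMIs were summed per class and library and expressed as CPM. Ratios carry exact conditional binomial intervals, CPM exact Poisson intervals and shares exact Clopper-Pearson intervals, all 95% and for counting error only. A count of 0 was set to 3. No p-value is given, because cells are not replicates. "At least 2-fold" needed 20 UMIs in both libraries together. Doublets were scored with Scrublet in scanpy 1.11.5 and kept, with scores over 0.25 left out as an alternative. Stroma was clustered with 2000 variable genes, 30 components, 20 neighbours and Leiden resolution 0.6. edgeR 4.0.16 gave scaling factors only. Interval and call code was tested on simulated data. The genes and lists were chosen with earlier results of these data known. Named were all 9 genes, up to 4 genes per list, direction and class by the interval limit nearest 1, 5 genes most like Gli1, Ptch1 and Ihh, and 8 genes of Ihh-bearing cells. Coordinates are from GENCODE M21, which was matched by gene identifier.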

Additional observations from a re-analysis of the deposited data

Results flagged for a closer look

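All genes of the other hedgehog, upstream and downstream lists whose ratio of cKO to control had its interval above 1 in one of the Epcam-positive and Pdgfra-positive classes and below 1 in the other are given here. They number 12, and the difference between the classes was not tested. Higher in Epcam-positive and lower in Pdgfra-positive cells were Gas1 (26.4 and 0.393), Cdon (15.3 and 0.437), Bmp4 (8.97 and 0.590), Evc (8.64 and 0.456), Evc2 (8.64 and 0.641), Ccnd2 (6.31 and 0.875), Fgf18 (3.41 and 0.449), Bcl2 (3.09 and 0.717) and Ccnd1 (2.44 and 0.296). Lower in Epcam-positive and higher in Pdgfra-positive cells, all within 2-fold, were Csnk1a1 (0.833 and 1.32), Gsk3b (0.872 and 1.40) and Stat3 (0.841 and 1.12). In keratin cells, without mesothelial UMIs, the interval was also above 1 for Ccnd1 (4.33, 3.90 to 4.79), Gas1 (3.49, 1.22 to 8.85, from 17 and 7 UMIs), Ccnd2 (3.28, 2.59 to 4.12) and Bcl2 (2.08, 1.04 to 3.87), and below 1 for Csnk1a1, Gsk3b and Stat3. It spanned 1 there for Cdon, Fgf18, Bmp4 and Evc2, and Evc had 1 and 0 UMIs.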

How the results depend on the processing

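Each log2 ratio of cKO to control was recomputed under up to 16 alternatives, of which thinning to 5000 UMIs and those on clusters, keratin cells and deep cells were chosen after seeing the data. Ihh, at 7.60, was 7.04 to 9.41 in 12 of 14 alternatives and moved beyond its interval to 3.89 for the mean of the cells' own CPM. Thinning to 5000 UMIs gave 3.15, a bound from 0 control UMIs and 4 cKO UMIs in 1 cell, which says little of the direction. Thinning to 1000 UMIs left at most 3 Ihh UMIs in each library and gave no value. Ptch1, at 1.28, moved to 1.65 when thinned to 1000 UMIs, 0.93 for the mean of cells and 0.85 when pooled within clusters. Gli1, at 2.32, stayed within its interval in 15 of 16, from 1.36 to 2.63, and moved to 0.92 when pooled within clusters without cluster 5. Hand2 ranged from 2.34 to 3.85, Gli2 from 0.12 to 1.76 and the lower bound of Hhip from 0.50 to 4.02. Smo (-0.40 to 0.01), Gli3 (-0.18 to 0.09) and Nr2f2 (-0.04 to 0.56) took both signs within 2-fold. Pooling within clusters gave no value for Hhip. The number of the 9 genes at least 2-fold higher in stroma was 4 and fell to 2 when cells were thinned to 1000 UMIs, where few UMIs are left. It lay between 3 and 5 in the other alternatives, and 0 were lower in each. No paired analysis was possible because each group is 1 library. The lone libraries limit every comparison, and the control values of Ihh and Gli1 rest on 2 and 9 UMIs.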
